A study of Rattus norvegicus with 8 samples.

Results

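The choroid plexus marker genes described here are Ttr, Folr1, Kcne2, Otx2, Sostdc1, Steap1 and Enpp2. They were found as the non-control probes of the array whose gene name is one of these 7, out of 26269 gene names in the design. Each gene had 1 probe, and that of Sostdc1 was spotted 10 times. All 7 probes were well above background on all 8 arrays, so all 7 were among the 16574 genes tested.

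The study measured total RNA of the hypothalamus of lactating Wistar rats on postpartum day 7. The control group held 4 dams with the agent given as control, and the other group held 4 dams exposed to TCDD, the prototype dioxin, which binds the aryl hydrocarbon receptor. How much TCDD was given, by which route and when is not stated in the labels or the design text. Each sample was hybridised in 1 colour to an Agilent whole rat genome array. Dams are called by their replicate number in the labels, and a number was not taken to link a control dam to a TCDD dam. Each group lay on a slide of its own, so slide and group cannot be told apart.

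The choroid plexus is a secretory epithelium on a vascular stroma that hangs in the ventricles and makes most of the cerebrospinal fluid. Its cells move ions and water from blood to fluid, carry folate and hormones across, and secrete carrier proteins into the fluid. It is not part of the hypothalamus, which borders the third ventricle, where some choroid plexus lies in the roof.

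The probes show which transcript piece each value reads. The first 30 bases of each are given 5′ to 3′ as the scanner files hold them, in transcript sense, with no base marked by capitals. The genome build is rn4, and the strand follows from the order in which the files write the coordinates.
Ttr: gtgttagcaactcgggaagatgccgtgaaa
Folr1: tagtgctgttctgcgtcgtcagctgagttc
Kcne2: gtgactacatgagatgataccttagtcatt
Otx2: aggcgtgatctgatgttttagccaatcttt
Sostdc1: attacacggttcctcatacactttgtcatt
Steap1: gcacggtacacgcttcgatttttgcctgga
Enpp2: accgacccgacaatgatgagagctgtaata
The whole probes lie at chr18:12413621-12413680 (plus) for Ttr, chr1:159315267-159315326 (minus) for Folr1, chr11:32290711-32290770 (plus) for Kcne2 and chr15:24623454-24623513 (minus) for Otx2. Those of Sostdc1 and Steap1 lie at chr6:55070308-55070367 (plus) and chr4:24972789-24972848 (plus). The Enpp2 probe maps to chr7:91296429-91301822 (minus), and since its bases are spread over 5394 bases of genome it crosses at least 1 intron. Exon and UTR annotation of rn4 was not used here.

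None of the 7 genes passed the test between TCDD and control dams, and Ttr had the widest spread of the 7 between dams. Values are log2 of the processed signal minus the array's 75th percentile, so 0 is the 75th percentile and a step of 1 is a doubling. A difference is the TCDD mean less the control mean, with limma's standard error (SE), and p-values were adjusted by Benjamini-Hochberg over all genes tested. Past an adjusted p of 0.05 there were 0 of 7 marker genes, against 4 of 16574 genes overall (0.0241%). Of the markers 4 had a higher and 3 a lower mean in TCDD dams, with a median difference of 0.03 on the log2 scale against 0.0042 over all genes tested. At an unadjusted p under 0.05 there was 1 marker gene, Kcne2, which was higher in TCDD dams, against 10.8% of all genes (7.95% higher and 2.82% lower). In RNA of whole tissue, fewer cells of a type and less RNA per cell cannot be told apart.

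**Figure D1:**
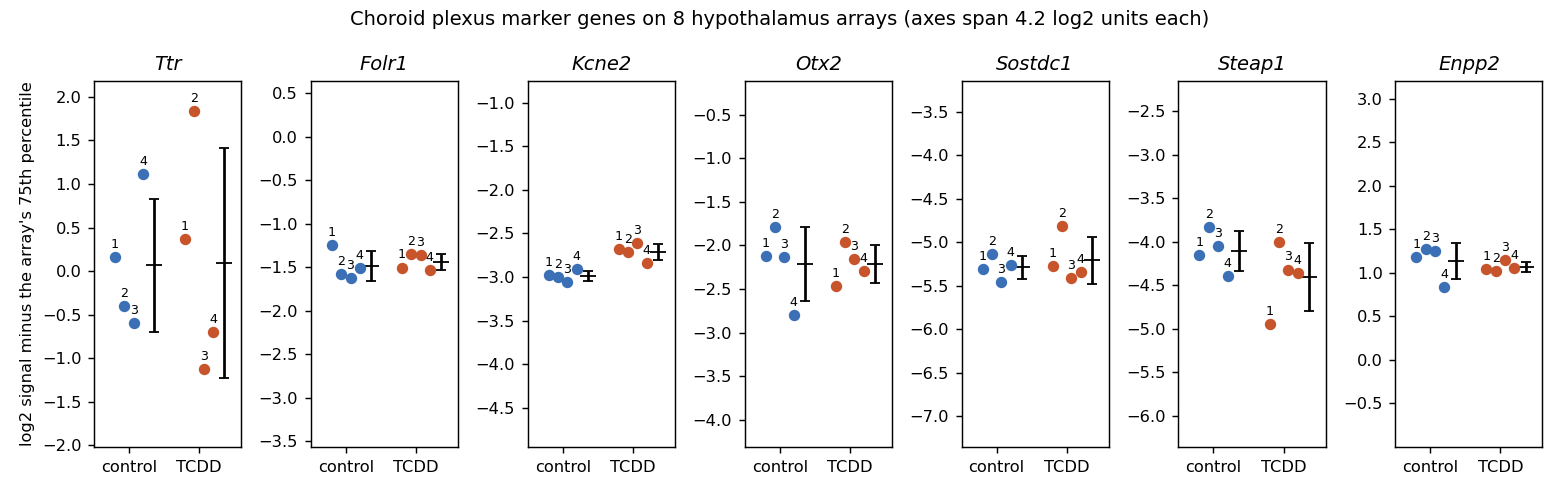
Log2 signal relative to the 75th percentile of the array (y axis, 4.2 log2 units in every panel) for each of the 7 genes in control (blue) and TCDD (orange) dams, with points numbered by dam and the mean and SD of 4 dams beside each group. Ttr spreads from -1.13 to 1.84, and Kcne2 is the gene whose groups do not overlap.

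Ttr encodes transthyretin, the carrier of thyroxine in the fluid, and is a standard marker of choroid plexus epithelium. Its log2 signal in control dams 1 to 4 was 0.16, -0.40, -0.60 and 1.11, and in TCDD dams 1 to 4 it was 0.37, 1.84, -1.13 and -0.70. The processed signals were 843, 738, 677 and 2269 in control and 1041, 3600, 493 and 644 in TCDD dams. Control dam 4 and TCDD dam 2 stood highest, TCDD dam 3 lowest, and the groups overlapped over most of their range. The highest array was 7.83-fold above the lowest. The SD over the 8 arrays was 1.00, larger than that of 99.2% of the genes tested.

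Ttr averaged 0.07 ± 0.77 in the control group and 0.10 ± 1.32 in the TCDD group (SD, n = 4 each). The difference was 0.03 (SE 0.65, adjusted p = 0.994), with a 95% interval from -1.47 to 1.53. The interval is wide on both sides, so the data set no close limit on a change in Ttr. Without TCDD dam 2 the difference was -0.55 (adjusted p = 0.75), and without control dam 4 it was 0.38 (adjusted p = 0.873).

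Folr1 encodes folate receptor alpha, which carries folate from blood into the cerebrospinal fluid across this epithelium. Its log2 signal was -1.24, -1.58, -1.62 and -1.50 in control dams 1 to 4 and -1.50, -1.35, -1.36 and -1.53 in TCDD dams 1 to 4. Control dam 1 was highest, and the values of the TCDD dams lay within the range of the control dams. The whole range was 1.30-fold, and the difference was 0.05 (SE 0.092, 95% interval -0.16 to 0.26, adjusted p = 0.907). TCDD dam 2, which had 3600 units of Ttr signal, did not stand apart in Folr1.

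Kcne2 encodes a small potassium channel subunit that pairs with the pore proteins of Kcnq1 and Kcna3 in choroid plexus epithelium. Its log2 signal was -2.98, -3.00, -3.06 and -2.91 in control dams 1 to 4 and -2.68, -2.72, -2.62 and -2.84 in TCDD dams 1 to 4. Every TCDD dam lay above every control dam, which held for 1 of the 7 markers and, in the same direction, for 5.33% of all genes tested (7.05% in either direction, and 1.72% with every TCDD dam lower). The means were -2.99 ± 0.061 and -2.71 ± 0.094 (SD, n = 4 each), a 1.21-fold difference.

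For Kcne2 the difference of 0.28 (SE 0.062, 95% interval 0.13 to 0.42) did not pass the test, with an unadjusted limma p of 0.00202 and an adjusted p of 0.162. With another background correction (normexp, with an offset of 50) it was 0.099 (adjusted p = 0.939). With single arrays left out the difference was 0.24 to 0.32, and the smallest limma adjusted p was 0.133. The 5 haemoglobin and red cell genes of the blood list all had higher means in TCDD dams, with 0 past the test and a median difference of 0.90. Their summed signal was 109 to 290 times the 75th percentile in control and 187 to 342 times in TCDD dams, and the groups overlapped, control dam 4 lying above TCDD dams 1 and 3. The part of blood in the Kcne2 difference was not tested. The values of Kcnq1, the partner channel, were -3.67 ± 0.28 in control and -3.48 ± 0.067 in TCDD dams, a difference of 0.19 (SE 0.13, adjusted p = 0.692).

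Otx2 encodes a homeodomain transcription factor needed for the choroid plexus to form and persist. Its log2 signal was -2.13, -1.78, -2.13 and -2.80 in control dams 1 to 4 and -2.46, -1.96, -2.15 and -2.29 in TCDD dams 1 to 4. Control dam 4, which was high in Ttr, was the lowest in Otx2. The range was 2.02-fold, and the SD of 0.31 over the 8 arrays was larger than that of 88.3% of the genes tested. The difference was -0.0062 (SE 0.21, 95% interval -0.48 to 0.47, adjusted p = 0.997).

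Sostdc1 encodes a secreted antagonist of BMP and Wnt ligands. Its log2 signal was -5.31, -5.13, -5.46 and -5.26 in control dams 1 to 4 and -5.27, -4.81, -5.41 and -5.34 in TCDD dams 1 to 4. TCDD dam 2 was the highest of the 8, and the other values of both groups overlapped. Over all 10 spots of the probe on an array, the SD of single spots was 0.156 to 0.271. The SD between arrays was 0.20, but each array value is a mean of spots, so these SDs cannot be compared directly. The difference was 0.08 (SE 0.14, 95% interval -0.23 to 0.39, adjusted p = 0.90), and without TCDD dam 2 it was -0.051.

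Steap1 encodes a membrane protein of the six-transmembrane metalloreductase family. Its log2 signal was -4.15, -3.83, -4.05 and -4.39 in control dams 1 to 4 and -4.94, -4.00, -4.32 and -4.36 in TCDD dams 1 to 4. TCDD dam 1 was lowest and control dam 2 highest, and the other TCDD dams lay within the control range. The range was 2.16-fold, and the SD of 0.34 over the 8 arrays was larger than that of 90.2% of the genes tested. The difference was -0.30 (SE 0.20, 95% interval -0.75 to 0.16, adjusted p = 0.682).

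Enpp2 encodes autotaxin, the secreted enzyme that makes lysophosphatidate, and is known from oligodendrocytes as well as from choroid plexus. Its log2 signal was 1.18, 1.27, 1.25 and 0.83 in control dams 1 to 4 and 1.04, 1.02, 1.15 and 1.06 in TCDD dams 1 to 4. Control dam 4 was lowest, and the TCDD dams lay within the control range. The range was 1.36-fold, and the difference was -0.07 (SE 0.099, 95% interval -0.30 to 0.16, adjusted p = 0.879). The summed signal of 11 oligodendrocyte genes, all well above background on all arrays, was 108 to 129 times the 75th percentile in control and 102 to 132 times in TCDD dams, and its part in the Enpp2 values was not tested.

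Whether the 7 genes moved together was examined over their 21 pairs across the 8 arrays. The signs were mixed. The median Pearson r was 0.11, with quartiles of -0.15 and 0.34, and 13 pairs were positive and 8 negative. Over all pairs of genes tested the median was 0.015, with quartiles of -0.30 and 0.33. An r of 0.7 or more was found in 3 marker pairs (14.3%), against 4.61% of all gene pairs. After adjustment over the 21 pairs no Pearson r passed 0.05 in the exact permutation test, and the smallest adjusted p was 0.218. At an unadjusted p under 0.05 there were 3 pairs.

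**Figure D2:**
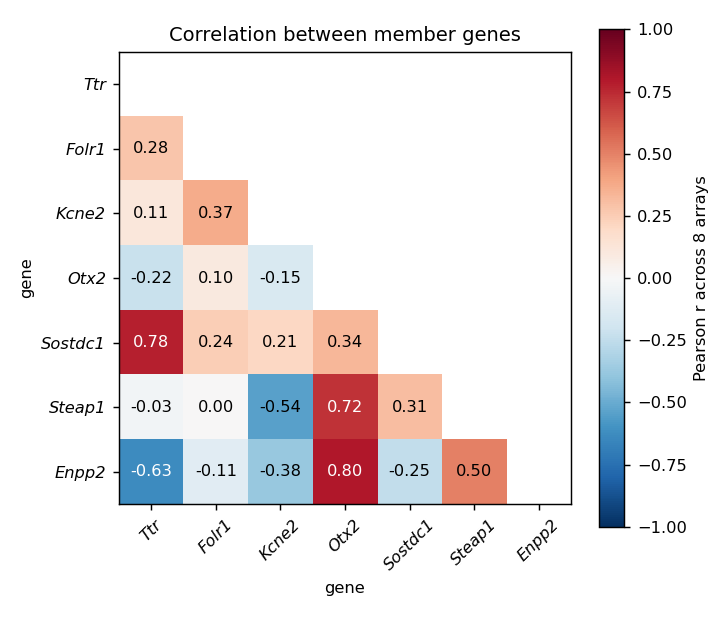
Pearson r across the 8 arrays for each of the 21 pairs of genes, from blue (negative) to red (positive), with the value printed in each square. Ttr with Sostdc1 (0.78), Otx2 with Enpp2 (0.80) and Otx2 with Steap1 (0.72) have the highest values, and Ttr with Enpp2 (-0.63) the lowest.

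Ttr and Sostdc1, both secreted products, had r = 0.78 (exact permutation p = 0.0208, adjusted p = 0.218) and Spearman's rho = 0.79 (exact permutation p = 0.0279, adjusted p = 0.293). TCDD dam 2 was highest in both genes. Without it r was 0.46 (exact permutation adjusted p = 0.896), and without TCDD dam 2 and control dam 4, the arrays farthest from the median of Ttr, it was 0.46 too. Without control dam 4 alone it was 0.86 (exact permutation adjusted p = 0.265), so the size of r depends on TCDD dam 2. This concerns r and not rho. Computed on deviations from the group means, r was 0.79 (permutation p within groups 0.0590, adjusted p = 0.401).

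The transcription factor gene Otx2 had positive r with Steap1 and Enpp2 and an r near 0 or below with Ttr. Otx2 and Enpp2 had r = 0.80 (exact permutation p = 0.0193, adjusted p = 0.218), while rho was 0.62 (exact permutation p = 0.115, adjusted p = 0.513). Control dam 4 was lowest in both genes. Without control dams 2 and 4 r was 0.22, and without control dam 4 alone 0.53 (exact permutation adjusted p = 0.670), so this relation rests largely on control dam 4. Without TCDD dam 2 it was 0.95 (exact permutation adjusted p = 0.00833).

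Otx2 and Steap1 ranked the dams in nearly the same order. Their rho was 0.95 (exact permutation p = 0.00114, adjusted p = 0.0240), and r was 0.72 (exact permutation p = 0.0497, adjusted p = 0.348). Without control dams 2 and 4, the arrays farthest from the median of Otx2, r was 0.93. Without control dam 4 alone it was 0.92 (exact permutation adjusted p = 0.0250), and on deviations from the group means 0.81 (permutation p within groups 0.00694, adjusted p = 0.0729). With each array left out in turn, r ran from 0.61 to 0.92, so its size depends on single dams.

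None of the other pairs of Ttr passed the test. Its r was 0.28 with Folr1 (exact permutation adjusted p = 0.893), 0.11 with Kcne2 (adjusted p = 0.899), -0.22 with Otx2 (adjusted p = 0.893) and -0.027 with Steap1 (adjusted p = 0.993). The Spearman values were 0.36, 0, 0 and -0.024, and all 4 had exact permutation p-values above 0.05. With Enpp2, r was -0.63 (exact permutation p = 0.0967, adjusted p = 0.508), rho was -0.60 (exact permutation p = 0.132), and r was -0.21 without control dam 4 and TCDD dam 2. Computed on deviations from the group means, r of Ttr and Enpp2 was -0.64 (permutation p within groups 0.00347, adjusted p = 0.0729).

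Folr1 and Kcne2, a carrier and a channel subunit of the epithelium, had r = 0.37 (exact permutation p = 0.360, adjusted p = 0.866) and rho = 0.55 (exact permutation p = 0.171, adjusted p = 0.513). Without control dam 1, the array farthest from the Folr1 median, r was 0.85 (exact permutation adjusted p = 0.226), and with normexp it was 0.79 over all 8 arrays (exact permutation adjusted p = 0.266). Kcne2 and Steap1 had r = -0.54 (exact permutation p = 0.156, adjusted p = 0.656) and rho = -0.50 (exact permutation p = 0.216, adjusted p = 0.567). On deviations from the group means their r was -0.32 (permutation p within groups 0.549, adjusted p = 0.768). It was -0.21 without TCDD dams 1 and 3, the arrays farthest from the Kcne2 median, and -0.23 with normexp over all 8 arrays. Neither pair passed the test. Each slide held 4 arrays of a single group, too few for a correlation of its own.

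A list of 32 other genes known from choroid plexus epithelium gave a mixed picture of how much of that tissue the samples held. Of the 31 on the array, 19 were well above background on all 8 arrays. The probes of 5 were well above background on none: Clic6, a chloride channel protein, Cldn2, the tight junction claudin of leaky epithelia, Slco1a5, an organic anion carrier, Tmem72 and Col8a2. Slc4a5, a bicarbonate cotransporter of the apical membrane, passed on control dam 1 alone. Slc13a4, a sulphate carrier, passed on TCDD dam 2 alone.

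The water channel and potassium channel genes of the epithelium were above background in some dams and not in others. Aqp1, the apical water channel, was well above background on control dams 2 and 4 and TCDD dams 2 and 4, and was not on the other 4 arrays. Kcnj13 was well above background on control dams 2, 3 and 4, at -4.35, -3.91 and -3.66 on the log2 scale, and on TCDD dam 2 at -2.23. It was not on the other 4 arrays. Kl, the klotho gene, and Mfrp passed on 6 arrays each, and F5, a clotting factor gene, on TCDD dams 2 and 4. The 19 genes measured throughout included Igfbp2, which other brain and meningeal cells also express. The summed signal of the 31 genes was 12.3, 13.2, 12.7 and 15.1 times the 75th percentile in control dams 1 to 4 and 10.75, 19.1, 11.3 and 11.8 times in TCDD dams 1 to 4. It was highest in TCDD dam 2 and next in control dam 4, the dams highest in Ttr, and the groups overlapped. With some of the epithelium's genes not above background in any dam, the 7 markers are described as a list of genes, not as a measure of choroid plexus tissue.

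**Figure D3:**
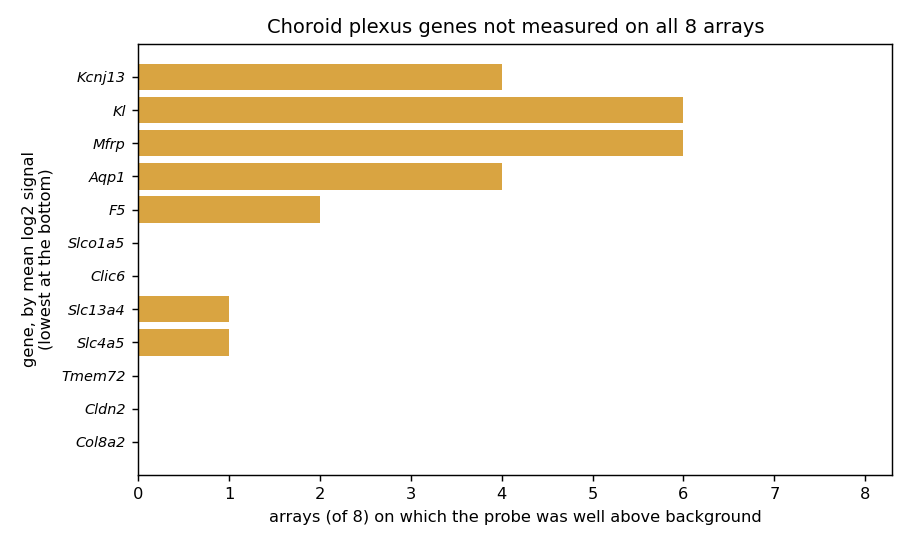
Number of the 8 arrays on which the probe was well above background (x axis) for the 12 other genes of choroid plexus epithelium (y axis) that were not so on all 8. Of these, 7 passed on 1 to 6 arrays, and 5, among them Clic6 and Cldn2, on none.

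Between the groups, 0 of the 19 genes tested from that list passed limma's test at an adjusted p of 0.05, and 0 had an unadjusted p under 0.05. In TCDD dams 9 had a higher and 10 a lower mean, with a median difference of -0.0081 on the log2 scale. The largest differences were those of Igfbp2, which encodes an IGF-binding protein (-0.59, SE 0.71, adjusted p = 0.840), the cytochrome oxidase subunit gene Cox8b (0.38, SE 0.22, adjusted p = 0.616) and the collagen gene Col8a1 (-0.34, SE 0.27, adjusted p = 0.733). With single dams left out the median ran from -0.059 (without control dam 2) to 0.030 (without control dam 4), so its sign rests on single dams, and 0 passed the test in each.

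Genes that work with the markers were followed in 4 lists. In the list for cerebrospinal fluid secretion and ion transport, the setting of Kcne2, 0 of 17 genes passed, 11 were higher and 6 lower, and the median difference was 0.028. With normexp 6 were higher and 11 lower, with a median of -0.0012, and without control dam 1 the median was -0.022. Besides Kcnq1, the largest differences were those of the carbonic anhydrase genes Car2 (0.17, SE 0.10, adjusted p = 0.639) and Car14 (-0.16, SE 0.10, adjusted p = 0.668). Slc12a2, the sodium-potassium-chloride cotransporter gene of the apical membrane, differed by 0.028 (SE 0.064, adjusted p = 0.930).

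In the list for thyroid hormone and retinoid carriage, the setting of Ttr, 0 of 20 genes passed, with 10 higher and 10 lower and a median difference of 0.00039 (-0.032 with normexp, and -0.039 without control dam 3 to 0.081 without control dam 4). Dio3, the enzyme that inactivates thyroid hormone, had the largest difference at -0.64 (SE 0.53, adjusted p = 0.751). The retinaldehyde dehydrogenase gene Aldh1a2 (-0.40, SE 0.97, adjusted p = 0.934) and the retinoic acid binding protein gene Crabp2 (-0.37, SE 0.73, adjusted p = 0.916) followed. Both are also in the fibroblast list, and TCDD dam 2 was far above the other TCDD dams in Crabp2, which read 1.66 there and between -1.43 and -0.83 on the other 3.

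In the folate list, the setting of Folr1, 0 of 10 genes passed, with 4 higher and 6 lower and a median difference of -0.018 (-0.051 without TCDD dam 2 to 0.035 without TCDD dam 1). Mthfd1, an enzyme of folate metabolism, differed by -0.17 (SE 0.063, adjusted p = 0.381), and Ggh, gamma-glutamyl hydrolase, by -0.14 (SE 0.060, adjusted p = 0.452). These 2 had an unadjusted limma p under 0.05, against 2.82% of all genes tested in that direction. The number of folate genes with such a p was 0 with normexp and 0 to 1 with single arrays left out. It thus depends on single dams and on the background correction. The proton-coupled folate carrier gene Slc46a1 differed by 0.074 (SE 0.060, adjusted p = 0.746).

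In the lysophosphatidate list, the setting of Enpp2, 0 of 9 genes passed, with 3 higher and 6 lower and a median difference of -0.075 (-0.10 without TCDD dam 4 to -0.024 without control dam 4). The receptor genes had the largest differences: -0.21 for Lpar2 (SE 0.19, adjusted p = 0.783), 0.20 for Lpar1 (SE 0.095, adjusted p = 0.511) and -0.11 for Lpar3 (SE 0.14, adjusted p = 0.851).

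Across the 8 arrays Ttr was set against the 71 genes tested from the choroid plexus list and these 4 lists. The r was positive for 46 and negative for 25, with a median of 0.25. The same share for Ttr over all genes tested is not given, so these counts are not read as an excess. It had an exact permutation p under 0.05 for 6 genes and passed adjustment for 0, the smallest adjusted p being 0.277. The highest was with Trpv4, a cation channel gene (r = 0.89, exact permutation p = 0.00506, adjusted p = 0.277; rho = 0.55, exact permutation p = 0.171). Without control dam 4 and TCDD dam 2 the r was 0.42, so it rests on these arrays. Without the same arrays the r of Ttr with Slc12a7 went from 0.76 to -0.78 and with Rbp4 from 0.62 to -0.53. With Slc12a2 it rose from 0.14 to 0.88, so the signs also depend on these arrays.

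Genes of other cells varied between dams as well. The summed signal of 15 meningeal and stromal fibroblast genes was 8.28, 16.7, 18.1 and 19.5 times the 75th percentile in control dams 1 to 4, and 6.76, 39.6, 7.50 and 7.88 times in TCDD dams 1 to 4. TCDD dam 2, the highest in Ttr, was the highest here. Control dam 4, the next in Ttr, was close to control dams 2 and 3, which were low in Ttr. All 15 were tested, 13 being well above background on every array, and 15 had a lower mean in TCDD dams. The median difference was -0.30, with 0 past the test. With single dams left out it ran from -0.97 without TCDD dam 2 and -0.66 without control dam 1 to -0.060 without TCDD dam 1, and it was -0.12 without TCDD dam 3 and -0.16 without control dam 4 or TCDD dam 4. With any dam left out 0 passed the test. Without TCDD dam 2, 12 of the 15 had an unadjusted limma p under 0.05, all lower in TCDD dams, against 0 over all 8 arrays. In that setting 1797 of 16582 genes had such a p in either direction.

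The summed signal of 7 pituitary genes was 7.43, 5.003, 6.13 and 44.9 times the 75th percentile in control dams 1 to 4 and 6.74, 53.5, 9.14 and 37.6 times in TCDD dams 1 to 4. The 3 highest were control dam 4, TCDD dam 2 and TCDD dam 4. The first 2 of these were the highest in Ttr, and TCDD dam 4 was among the lower ones. Cga, the common subunit of the glycoprotein hormones, read 4.93, 5.25 and 4.63 on the log2 scale on these 3 and at most 1.04 on the others. The genes of the list did not follow a single pattern. Prl, the prolactin gene, and Gh1, the growth hormone gene, were well above background on control dam 2, which had the lowest sum, and on TCDD dams 2, 3 and 4, and not on control dam 4. Of the 7 genes 3 were well above background on all arrays and Pou1f1 on none. Pomc is also a gene of hypothalamic neurons. The part of other cells in the Ttr and Sostdc1 values was not tested.

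**Figure D4:**
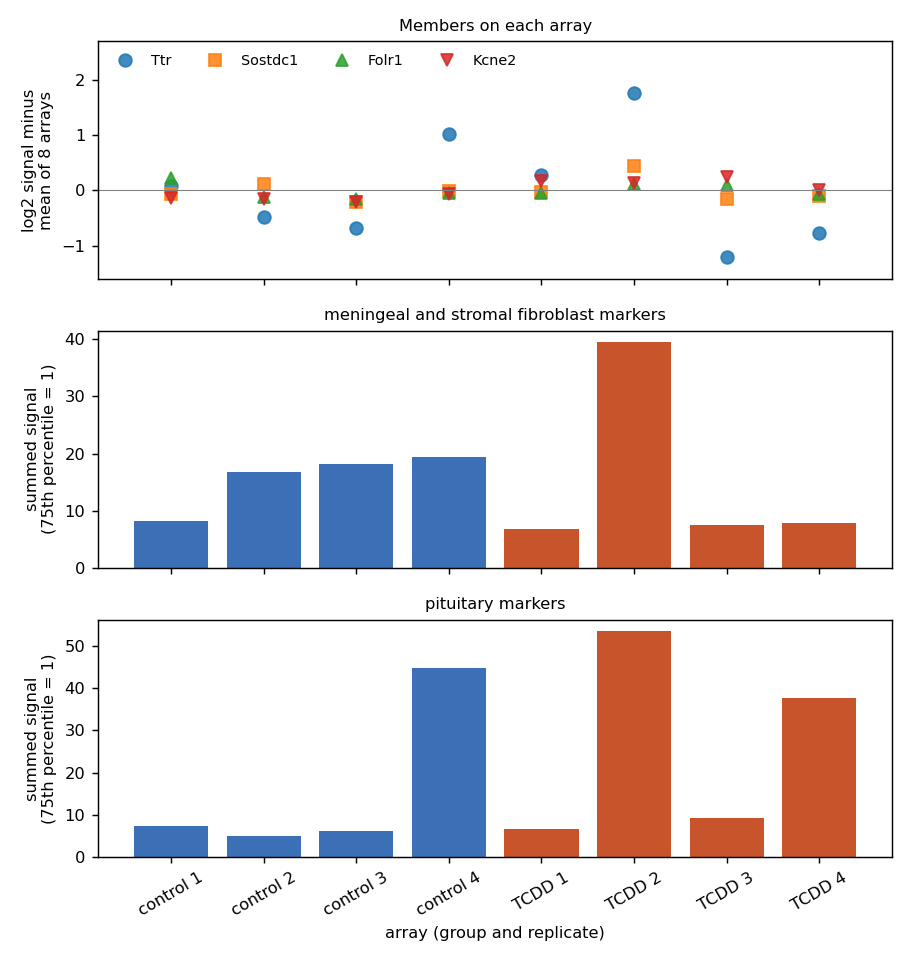
Top, log2 signal minus the mean of the 8 arrays for Ttr, Sostdc1, Folr1 and Kcne2; middle and bottom, summed signal of the fibroblast and the pituitary genes as multiples of the array's 75th percentile, for each array (x axis, control blue, TCDD orange). TCDD dam 2 is highest in Ttr, Sostdc1 and both sums, and control dam 4 is high in Ttr and in the pituitary sum.

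Ependyma, the ciliated lining of the ventricles, was steadier than the fibroblast and pituitary lists. The summed signal of its 14 genes on the array, 12 of them well above background throughout, was 10.03 to 10.8 times the 75th percentile in control and 9.85 to 11.2 times in TCDD dams. The median SD of the ependymal genes over the 8 arrays was 0.22, against 1.04 for fibroblast and 1.90 for pituitary genes tested. That median was 0.20 for the 7 markers and 0.13 over all genes tested. Under TCDD 7 of the 14 had a higher and 7 a lower mean, and 0 passed the test. All 12 hypothalamic genes of the tissue check, such as those for oxytocin and vasopressin, were well above background on all 8 arrays.

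The genes whose pattern was most like that of the markers were ranked by Pearson r with the mean of the 7 centred log2 signals, among 2591 genes with an SD of at least 0.2 over the 8 arrays. That mean was 0.41 in TCDD dam 2 and between -0.16 and 0.056 in the others. It followed Sostdc1 (r = 0.94) and Ttr (r = 0.80) and not Enpp2 (r = -0.15) or Kcne2 (r = 0.064), which describes how it was built. The 10 genes were Spp1 (0.95), Ankrd26 (0.93), Clstn2 (0.92), Rbpms (0.91), Hs3st6 (0.91), Mall (0.91), Krt33b (0.90), Prosapip1 (0.90), Olfml2a (0.90) and Hspb1 (0.89). All 10 read highest in TCDD dam 2. Spp1, the osteopontin gene, read -2.24 there and between -3.41 and -2.96 on the other 7 arrays. These r values are a description over 8 arrays, chosen as the highest of many.

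The arrays were otherwise alike, except that those of control dam 1 and TCDD dam 1 were dimmer. Their 75th percentile of the processed signal was 756 and 806, against 973 to 1077 on the others. In TCDD dam 1 61.7% of probes were well above background, and 65.0% to 66.7% on the other arrays. The r between arrays across probes was 0.986 to 0.991. With 4 arrays a group, their number limits the precision.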

How the data were processed

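Spot intensities on a linear scale were deposited as 1 scanner file per array, from Agilent's Feature Extraction software (10.7.1.1, per the file headers). The processed signal is background-subtracted, and dim spots carry a surrogate value, per the file headers. The authors also deposited a table of intensities whose columns share a median of 65.1. Its scale is linear, its centring is not stated, and on the log2 scale it tracked the scanner files with an r above 0.999. It served as an alternative.

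The 1377 control spots and outlier spots were left out, log2 signal was centred on the 75th percentile over the 42877 other spots of each array, and spots of a probe were averaged. A probe was kept (19102 were) if either group had it well above background on all 4 arrays, with the brightest for each gene name (16574). Groups were compared with limma 3.58.1 in R 4.3.3 (lmFit and eBayes, group alone). Pairs were tested by exact permutation over 40320 pairings, 2-sided, and within groups for deviations. The gene test was tested on simulated data. Figures used Python 3.11.15 and matplotlib 3.10.9.

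The genes, lists and tests were chosen with earlier results of these data known. Named genes were the 7 markers, the 10 most alike in pattern, and the 3 largest differences of each list, of which those of the lists a result turns on are printed. Slc12a2, Slc12a7, Slc46a1, Slc17a6, Rbp4, Trpv4 and the genes not above background were named after their values were seen. Accessions matched current symbols for 7 of 7 markers (RefSeq, GRCr8, names alone). Promoter sequences were not used here, and some genes that this rule names are not reported here.

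Alternatives concerned background correction, scaling, the authors' table, the filter, genes with several probes, array weights, the variance model, the replicate block and leaving out each array.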

Additional observations from a re-analysis of the deposited data

How the results depend on the processing

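Over the 19 alternatives 0 of the 7 markers passed the test in each. The count of all genes past limma's test was 4, against 20 with normexp, 27 with median scaling, 34 with a trended robust variance, 67 with array weights, and 0 without a filter (2032 at an unadjusted p under 0.05). It was 0 with the replicate number as a block (2139 at an unadjusted p under 0.05), which changed no call of a marker. The labels number the dams 1 to 4 in both groups. Same-numbered deviations correlated at -0.046 to 0.23 and only number 1 matched its own best. The main test did not pair dams by number, and with 4 numbers these values cannot show whether dams were paired. Leaving out single arrays gave 0 to 8 genes. The count was 0 without control dam 1, 2 or 4 or TCDD dam 2 or 3, where 1350, 1394, 2031, 1797 and 1414 had an unadjusted p under 0.05, 8 without control dam 3 and 1 without TCDD dam 4. Scaling to averaged probes, chosen after the data were seen, gave 3. The cause was not tested.

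Uncalled signs changed. Sostdc1 was -0.034 with normexp and -0.051 to 0.15 with single arrays left out, Ttr -0.081 with array weights and -0.55 to 0.44 with arrays left out, and Otx2 -0.20 to 0.14. For r, Ttr with Steap1 was 0.26 with normexp and -0.37 to 0.12 with arrays left out, Ttr with Kcne2 -0.18 to 0.55, and Ttr with Otx2 -0.69 to 0.15. Pairs past adjustment numbered 0, but 1 with Spearman's rho and 0 to 1 with arrays left out. List genes past the test numbered 0 with normexp and, as an alternative chosen after the data were seen, with each array left out. Dim probes such as Sostdc1 are limited by their signal over background.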

Other observations

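Markers of other neighbouring tissues did not pass limma's test in any list. For the pineal, which lies near the roof of the third ventricle and also expresses Otx2, 3 of 7 genes were well above background on all arrays, and the phototransduction and control genes Crx, Sag and Gngt1 were on none. The 3 tested had higher means in TCDD dams, with a median of 0.056 (0.0022 without TCDD dam 3 to 0.13 without control dam 4). The habenula list had Chrna3 alone among the genes tested (-0.32, SE 0.10, adjusted p = 0.293), and Gpr151, Pou4f1 and Chrnb3 were well above background on no array.

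The summed signal of 8 thalamic genes was lowest in control dam 4, at 9.85 times the 75th percentile. It was 11.1 to 12.5 times on the other arrays. Control dam 4 was also lowest in Otx2 and Enpp2, but a link to these was not tested. Slc17a6, the brightest of the thalamic genes, weighs most in the sum and read 3.00 in control dam 4 and 3.01 to 3.23 elsewhere. Plekhg1 was also lowest in control dam 4 (-4.91), but Prkcd was lowest in control dam 1 (-1.51) and Tnnt1 in control dam 3 (-1.94). Of the 8, 7 had higher means in TCDD dams, with a median of 0.26, which was 0.072 without control dam 1, 0.10 without control dam 4, 0.14 without TCDD dam 3, 0.16 without TCDD dam 2 and 0.092 with normexp. The tanycyte list had 2 genes higher and 8 lower of 10 tested, with a median of -0.093. Its direction rests on single dams: 8 were higher and 2 lower without control dam 4 (median 0.15), 6 higher and 4 lower without TCDD dam 1 (0.051), and 5 each way without TCDD dam 3 (0.015). Its summed signal was highest in control dam 4 at 19.8 times and next in TCDD dam 2 at 14.2 times, the dams highest in Ttr. The endothelial list had 6 higher and 2 lower of 8, with a median of 0.042 (-0.031 without control dam 4). The hypothalamic list had 8 higher and 4 lower of 12, with a median of 0.049 (0.0050 without control dam 2 to 0.11 without TCDD dam 1). Of the 14 ependymal genes 1, Mia, had groups that did not overlap (-0.63, SE 0.14, adjusted p = 0.153), against 1.72% of all genes with every TCDD dam lower. Of the 4 pituitary genes tested 1, Pitx1, did not overlap (0.24, SE 0.074, adjusted p = 0.282), against 5.33% of all genes with every TCDD dam higher.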
